A study of Bos taurus and Sus scrofa with 10 samples.

Results

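The genes described here are the ligands and receptors of fibroblast growth factor (FGF) signalling and 3 inhibitors that act on the ERK kinase pathway downstream of it. The 10 symbols FGF2, FGF4, FGF10, FGFR1, FGFR2, FGFR3, FGFR4, SPRY2, SPRY4 and DUSP6 were looked up by exact name in 1 expression table per species. 8 of them were found among the 22845 rows of the cow table and 8 among the 21867 rows of the pig table, each on a single row, and 7 were shared. FGF4 in both species, FGF10 in cow and FGFR1 in pig were not analysed here. RNA was sequenced from cow (Bos taurus) and from pig (Sus scrofa) at 5 stages: oocyte, embryos of 2-4 and of 8-16 cells, morula and blastocyst. With 1 library for every stage and species, differences between stages have no replicate check and were not tested. Breed, the way embryos were produced and the number of oocytes or embryos in a library are not given in the sources used here.

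FGF ligands bind receptor tyrosine kinases on the cell surface together with heparan sulfate chains, and the active receptor signals through RAS, RAF and MEK to ERK. ERK signalling in turn switches on SPRY (Sprouty) proteins, which restrain the pathway between receptor and ERK, and DUSP6, a phosphatase that inactivates ERK. In the mouse blastocyst this pathway is known for dividing the inner cell mass into epiblast and primitive endoderm, and it also supports the growth of trophectoderm, the outer layer.

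Levels are reads per 1000000 reads of a library (RPM). They were not divided by gene length, so a level is compared between stages of the same gene and never between genes. The libraries held 3002751 to 14182046 reads, of which 71.7% to 92.7% fell in gene rows and 2.74% to 30.2% came from the mitochondrial genome, the highest share being that of the cow blastocyst library. A count of 0 reads allows up to 3 reads, or 0.212 to 0.999 RPM, depending on the depth of the library. Intervals are exact 95% Clopper-Pearson intervals that cover counting error only and leave out differences between libraries of the same stage. The treatment of duplicate reads is not given, and if amplified copies were counted the intervals are too narrow. The stage labels were checked against markers: from oocyte to blastocyst the summed level of oocyte markers went in cow from 7138 to 0.282 RPM and in pig from 7146 to 22.3 RPM, and that of trophectoderm markers in cow from 50.9 to 3373 RPM and in pig from 21.0 to 8439 RPM.

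Changes are differences of log2(RPM + 1), which understate the change of genes with low levels. A gene was compared where either library had at least 1 RPM, and it is said to have risen or fallen where the difference reached 2 in either direction, equal to 4-fold in RPM + 1. From oocyte to blastocyst 4 of 8 compared members had changed in cow, against 41.3% of all genes compared, and 5 of 7 in pig, against 47.1%. In cow FGFR3, FGFR4 and SPRY4 had risen and FGF2 had fallen. In pig FGFR2 and FGFR3 had risen, and FGF2, SPRY2 and SPRY4 had fallen. The median change of the compared members was 1.69 in cow and 0.82 in pig, beside 0.17 and 0.43 for all genes compared (0.31 in pig with low values set to the floor of 3 reads).

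Of the changes at single steps, 5 in cow and 7 in pig, all but 1 fell at the last 2 steps. At the step from oocyte to 2-4 cells no member changed in cow (0 of 5 compared, 0.384% of all genes) or in pig (0 of 6, 6.18%). At the step from 2-4 to 8-16 cells 0 of 7 changed in cow, where 27.9% of all genes did, and 1 of 7 in pig (SPRY4, 5.54%). At the step to the morula 2 of 7 changed in cow (FGFR4 and SPRY2, 12.6%) and 2 of 7 in pig (FGFR2 and SPRY4, 24.6%). At the step to the blastocyst 3 of 8 changed in cow (FGFR1, FGFR2 and FGFR3, 24.2%) and 4 of 7 in pig (FGF2, SPRY2, SPRY4 and DUSP6, 29.0%). With counts this small, the members' shares are not set apart from the background.

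**Figure D1:**
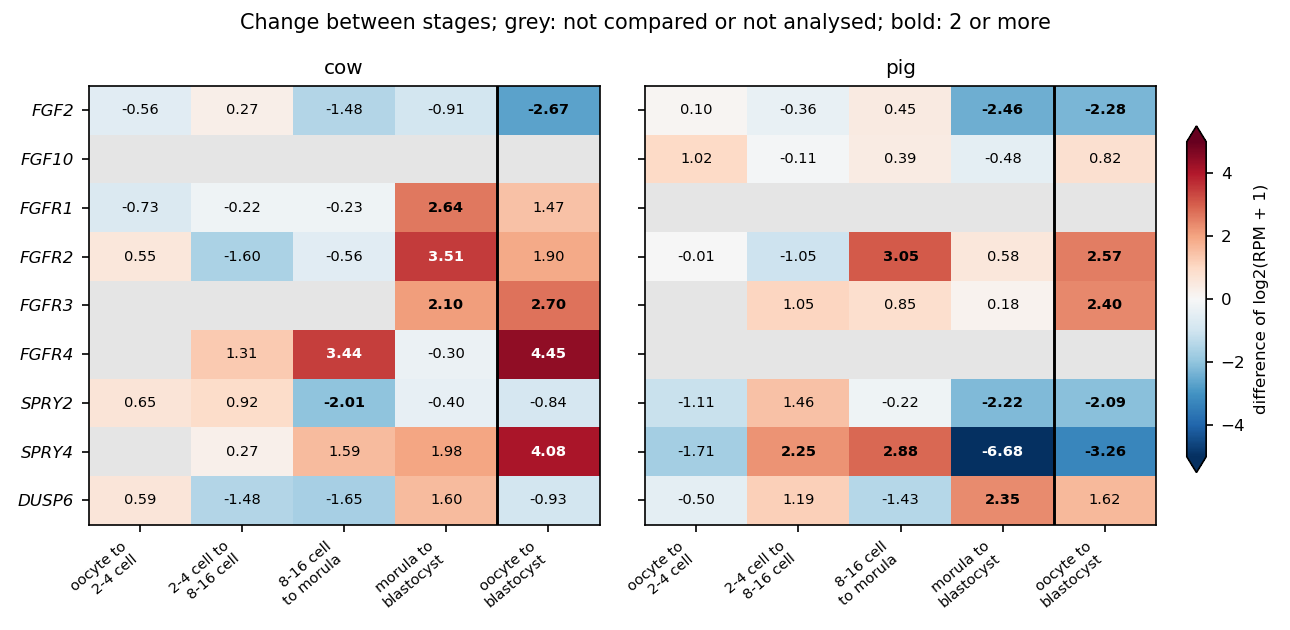
Change of each gene at the 4 consecutive steps and, right of the black line, from oocyte to blastocyst, as the difference of log2(RPM + 1) between 2 libraries, in cow (left) and pig (right). Blue cells are lower and red cells higher in the later stage; the colour scale ends at 5 in either direction, and the largest difference is that of SPRY4 at the pig step from morula to blastocyst (-6.68).

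Among the ligands, FGF2, a broadly acting factor that binds several FGF receptors, was lowest at the blastocyst in both species. In cow (chromosome 17, 35199615 to 35259135, minus strand; build UMD3.1) its level was 59.8 RPM in the oocyte library, 40.3 RPM at 2-4 cells, 49.0 RPM at 8-16 cells, 16.9 RPM in the morula and 8.53 RPM in the blastocyst library. The first 3 stages were high and the last 2 low, with no overlap between the intervals of the 2 sets. The blastocyst level was 7.01-fold below that of the oocyte (5.66 to 8.74). In pig (chromosome 8, 101282308 to 101343916, minus strand; build Sscrofa11.1) FGF2 stood at 20.7, 22.2, 17.1, 23.6 and 3.49 RPM in the same order. The first 4 pig stages did not differ beyond counting error between neighbours in the order of their levels, and the blastocyst was 6.78-fold below the morula (3.72 to 13.4). The largest step of FGF2 in cow was that from 8-16 cells to the morula, a difference of -1.48 that is short of the threshold, and in pig that from morula to blastocyst, where FGF2 fell by 2.46.

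The FGF2 span overlaps NUDT6, a gene on the opposite strand, over 5830 bases in cow and 2027 bases in pig, and whether reads were assigned by strand is not given in the sources used here. NUDT6 went between the oocyte and the blastocyst library in cow from 67.7 to 5.71 RPM, and in pig from 19.2 to 25.2 RPM. Cumulus cells surround the oocyte and can be carried into oocyte libraries. The summed level of 15 cumulus markers in cow was 320, 290, 61.1, 64.4 and 133 RPM in stage order, and that of 12 in pig was 182, 148, 226, 380 and 338 RPM. Of these markers 6 of 15 in cow and 4 of 12 in pig were at 0 reads in the oocyte library, among them CYP11A1 in both species and FOXL2, LHCGR and AMH in cow. Most of the cow sum in the oocyte library came from STAR, VCAN and FSHR, which went to the blastocyst library from 157 to 10.3 RPM, from 116 RPM to 0 reads and from 37.3 to 23.8 RPM. Other cow markers went up, among them CYP19A1 from 2.64 to 48.8 RPM and CYP11A1 from 0 reads to 16.6 RPM. Of 10 compared cow markers 4 rose and 3 fell from oocyte to blastocyst. The pig sum was mostly VCAN, with 101, 77.8, 139, 338 and 302 RPM in stage order. Of 7 compared pig markers 1 rose and 3 fell. The part of cumulus cells in the FGF2 levels was not tested. In bulk samples fewer cells of a type and less RNA per cell cannot be told apart.

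FGF10 is a ligand that reaches epithelial cells through a splice form of FGFR2, and it was analysed in pig (chromosome 16, 28694162 to 28777283, minus strand). Its level was 15.4 RPM in the oocyte library (11.5 to 20.2), 32.1 RPM at 2-4 cells, 29.7 RPM at 8-16 cells, 39.3 RPM in the morula and 27.9 RPM in the blastocyst library (22.8 to 33.8). The oocyte was lowest, with an interval below those of all 4 embryo stages, and the embryo stages next to each other in order of level did not differ beyond counting error. In order of development the morula was 1.32-fold above the 8-16 cell stage (1.001 to 1.75) and the blastocyst 1.41-fold below the morula (1.07 to 1.85). The difference from oocyte to blastocyst was 0.82, short of the threshold, and none of the 4 steps passed it. FGF10 was thus read at every pig stage, including the blastocyst, where FGF2 was down to 13 reads.

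Each receptor analysed had its highest level in the morula or the blastocyst, but the steps at which they rose differed between receptors and species; the difference between species was not tested. FGFR1, a receptor found in many tissues, was analysed in cow (chromosome 27, 33250534 to 33291989, minus strand). It stood at 5.88 RPM in the oocyte library, 3.15 RPM at 2-4 cells, 2.58 RPM at 8-16 cells, 2.05 RPM in the morula and 18.1 RPM in the blastocyst library. The blastocyst was high and apart from all others, while the 4 earlier stages did not differ between neighbours beyond counting error. From morula to blastocyst FGFR1 rose 8.80-fold (4.40 to 20.6), and from oocyte to blastocyst the difference was 1.47, short of the threshold.

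FGFR2, which has an epithelial and a mesenchymal splice form that gene counts do not separate, had its lowest levels in the middle of the series and its highest in the blastocyst in both species. In cow (chromosome 26, 41823653 to 41926635, minus strand) its level was 7.51, 11.5, 3.13, 1.80 and 30.8 RPM from oocyte to blastocyst. The morula (7 reads) and the 8-16 cell stage (17 reads) were lowest and did not differ beyond counting error. From morula to blastocyst it rose 17.2-fold (8.26 to 42.9). In pig (chromosome 14, 131181713 to 131289414, minus strand) the levels were 11.0, 10.9, 4.74, 46.6 and 70.0 RPM, lowest at the 8-16 cell stage. The rise in pig came at the step to the morula, by 9.84-fold (5.77 to 18.1), and the blastocyst was a further 1.50-fold above the morula (1.22 to 1.86).

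From oocyte to blastocyst the FGFR2 difference was 2.57 in pig and 1.90 in cow, just under the threshold. In cow it came to 2.28 when libraries were scaled to gene reads outside the mitochondrial genome, and to 2.02 with a pseudocount of 0.1 RPM. That scaling moved the median change of all cow genes by 0.42. The other alternatives with a threshold of 2 left FGFR2 in cow short of it.

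FGFR3, a receptor known for its role in growing bone, was close to absent from the reads of the early stages. In cow (chromosome 6, 109691052 to 109704277, plus strand) it had 0 reads in the oocyte and 2-4 cell libraries, which allows up to 0.609 and 0.676 RPM, 1 read at the 8-16 cell stage, 2 reads in the morula and 78 reads in the blastocyst, which is 5.50 RPM. The blastocyst stood apart from the rest, at least 9.04-fold higher than the oocyte. In pig (chromosome 8, 879207 to 895912, plus strand) FGFR3 had 0 reads in the oocyte library, 1 read at the 2-4 cell stage, 1.58 RPM at 8-16 cells, 3.66 RPM in the morula and 4.29 RPM in the blastocyst. This last level was at least 4.83-fold higher than that of the oocyte. No neighbours in the pig order that could be compared differed beyond counting error. With values at or below 3 reads set to that floor, the pig change from oocyte to blastocyst was 1.49 in place of 2.40, and the cow change from morula to blastocyst, which had passed the threshold, was 1.88.

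FGFR4, a receptor best known from liver, where it takes part in the control of bile acid synthesis, was read late in cow and hardly at all in pig. In cow (chromosome 7, 39936164 to 39946911, plus strand) it had 0 reads in the oocyte and 2-4 cell libraries, 8 reads or 1.47 RPM at 8-16 cells, 25.9 RPM in the morula (21.1 to 31.5) and 20.8 RPM in the blastocyst library (18.5 to 23.3). The morula and the blastocyst were high and did not differ beyond counting error. FGFR4 rose 17.6-fold from the 8-16 cell stage to the morula (8.59 to 41.8), and the blastocyst level was at least 34.2-fold higher than that of the oocyte. In pig (chromosome 2, 80841543 to 80853791, minus strand) FGFR4 had 0, 0, 1, 1 and 3 reads and never reached 1 RPM, so it entered no comparison. The upper limit in the pig blastocyst library was 2.35 RPM. Levels of the 2 tables are set side by side here although each was scaled on its own.

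**Figure D2:**
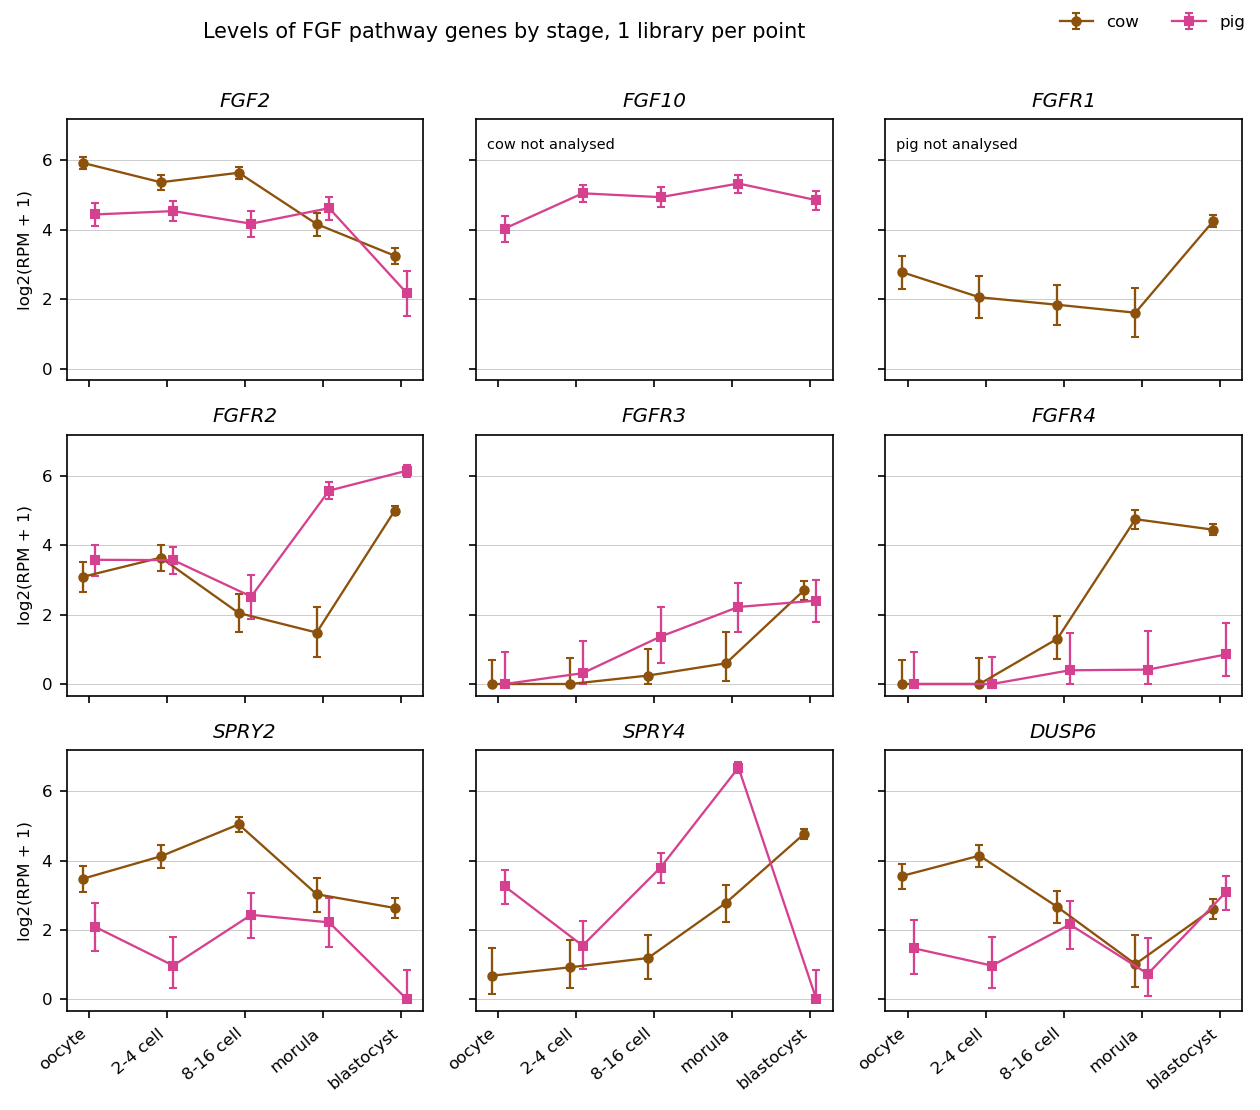
Level of each gene by stage in cow (brown circles) and pig (pink squares), as log2(RPM + 1), 1 library per point. Bars are exact 95% counting intervals, and at 0 reads they end at the floor of 3 reads; FGFR4 is above 4 in the cow morula and blastocyst and under 1 at every pig stage, and SPRY4 falls from its highest pig level in the morula to 0 reads in the blastocyst.

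The make-up of receptor reads does not depend on how libraries are scaled. Reads of FGFR2, FGFR3 and FGFR4, the receptors analysed in both species, were therefore added up per library. Longer transcripts give more reads, so the shares compare stages and are not shares of molecules. FGFR2 held all 37 receptor reads of the cow oocyte library and all 37 of the pig oocyte library, where 0 reads for another receptor allow a share of up to 8.11%.

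In cow the share of FGFR4 was 30.8% at the 8-16 cell stage (8 of 26 reads, 14.3% to 51.8%). It was 91.8% in the morula (101 of 110 reads, 85.0% to 96.2%) and 36.4% in the blastocyst (33.1% to 39.8%). FGFR2 held 6.36% in the cow morula (2.60% to 12.7%), and its share in the cow blastocyst was 54.0% (50.4% to 57.4%). In pig FGFR2 held 92.1% in the morula (140 of 152 reads, 86.6% to 95.9%) and 93.2% in the blastocyst (261 of 280 reads, 89.6% to 95.9%). The cow morula was the exception among the 10 libraries, with most receptor reads from FGFR4, while in the other 9 FGFR2 had the most reads. As reads depend on transcript length, this does not rank the receptors by molecules. At the cow 8-16 cell stage FGFR2 had 17 reads and FGFR4 had 8, and the intervals of their shares overlapped.

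FGFR3 held its highest pig share at the 8-16 cell stage, 23.8% from 5 of 21 reads (8.22% to 47.2%), and its highest cow share in the blastocyst, 9.63% (7.69% to 11.9%). With FGFR1 added in cow, FGFR1 held 43.9% of receptor reads in the oocyte library (31.7% to 56.7%), 6.78% in the morula (2.97% to 12.9%) and 24.0% in the blastocyst (21.5% to 26.7%).

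**Figure D3:**
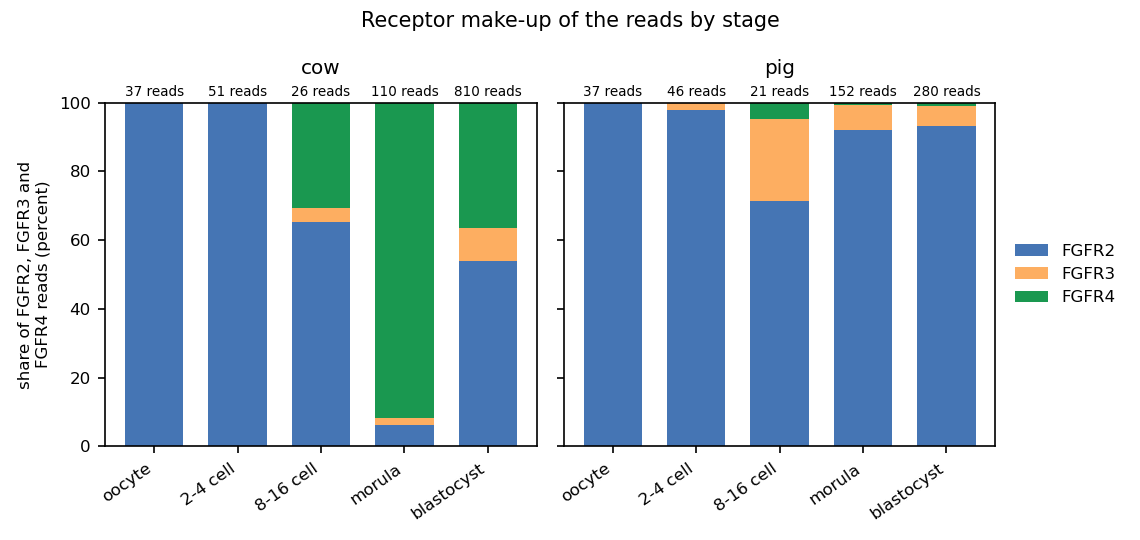
Share of FGFR2 (blue), FGFR3 (orange) and FGFR4 (green) among the reads of these 3 receptors at each stage, in percent, with the number of receptor reads above each bar. In cow FGFR4 makes up 91.8% of them in the morula and 36.4% in the blastocyst, while in pig FGFR2 makes up at least 71.4% at every stage.

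Cell type markers were set beside the receptors. At the step from 8-16 cells to the morula, where FGFR4 rose in cow, the cow trophectoderm markers summed to 337 and 335 RPM and the primitive endoderm markers to 241 and 411 RPM. The summed level of trophectoderm markers was 335 RPM in the cow morula library with 5 of 9 at 1 RPM or more, and 3373 RPM in the cow blastocyst library with 8 of 9. In pig it was 621 RPM in the morula with 6 of 10, and 8439 RPM in the blastocyst library with 10 of 10. Primitive endoderm markers summed to 411 and 614 RPM in the cow morula and blastocyst libraries and to 271 and 376 RPM in those of pig, where SOX17 and FOXA2 were at 0 reads in both. From morula to blastocyst 5 of 8 compared primitive endoderm markers rose and 0 fell in cow, and 2 of 7 rose and 1 fell in pig. In cow HNF4A went from 0 reads to 20.0 RPM and PDGFRA from 130 to 270 RPM. GATA6, the largest part of the cow morula sum, went from 232 to 226 RPM, and RSPO3 from 43.9 to 13.7 RPM. FOXA2 was at 0 reads in both cow libraries and SOX17 had 0 and 4 reads. The part of these cell types in the receptor levels was not tested.

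The feedback genes did not move as a block. SPRY2, an inhibitor that acts upstream of ERK, was highest at the 8-16 cell stage in cow (chromosome 12, 55684001 to 55685894, minus strand), with 10.1 RPM in the oocyte library, 16.4 RPM at 2-4 cells, 32.0 RPM at 8-16 cells, 7.18 RPM in the morula and 5.22 RPM in the blastocyst library. The 8-16 cell library was apart from all others. From there to the morula SPRY2 fell by 2.01 on the log2 scale, at the edge of the threshold, to a level 4.46-fold lower (2.98 to 6.91). In pig (chromosome 11, 52154493 to 52155440, minus strand) it had 3.26, 0.967, 4.42, 3.66 and 0 RPM, from at most 14 reads, and the blastocyst level was at least 4.55-fold lower than that of the morula. The pig row spans 948 bases and the cow row 1894 bases, so the rows may not cover the same parts of the transcript.

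The pig SPRY2 change from oocyte to blastocyst, -2.09, was -1.24 with low values set to the floor, and just under the threshold at equal depth (-1.999) and when scaled to gene reads outside the mitochondrial genome (-1.996). The step from morula to blastocyst was -1.37 with low values set to the floor. With a minimum of 5 RPM neither was compared.

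SPRY4, another Sprouty inhibitor, ended at opposite extremes in the 2 species. In cow (chromosome 7, 55222501 to 55234079, minus strand) its level was 0.609 RPM in the oocyte library (3 reads), 0.901 RPM at 2-4 cells (4 reads), 1.29 RPM at 8-16 cells (7 reads), 5.90 RPM in the morula and 26.2 RPM in the blastocyst library (23.6 to 29.0). The first 3 stages did not differ beyond counting error, and the morula and then the blastocyst stood above them. The blastocyst level was 43.1-fold above that of the oocyte (14.6 to 210.0), the step from morula to blastocyst alone giving 4.45-fold (2.92 to 7.10), a difference of 1.98 that missed the threshold, although it was 2.06 to 2.70 under 6 of the 12 alternatives with the same threshold.

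In pig (chromosome 2, 143877340 to 143891285, minus strand) SPRY4 stood at 8.59 RPM in the oocyte library, 1.93 RPM at 2-4 cells, 12.9 RPM at 8-16 cells, 102 RPM in the morula (90.5 to 114) and 0 reads in the blastocyst library, which allows up to 0.804 RPM. The morula was far above every other pig stage, and the blastocyst was the lowest. SPRY4 rose 6.70-fold between 2-4 and 8-16 cells (3.1 to 16.5) and 7.84-fold from there to the morula (5.65 to 11.2). It then fell to a level at least 126-fold lower. 2 rows of the antisense RNA SPRY4-IT1 lie inside the pig gene and had 0 reads in all 5 libraries.

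The pig libraries on either side of this fall also differed in epiblast markers, genes of the inner cells that form the embryo proper. Their summed level was 110 RPM in the morula with 1 of 8 at 0 reads, and 132 RPM in the blastocyst library with 5 of 8 at 0 reads. In the pig blastocyst library NANOG, SOX2, PRDM14, NODAL and GDF3 were at 0 reads, and TDGF1 gave 117 RPM of the sum. In the cow blastocyst library, where SPRY4 was at its highest, the 8 markers of the cow list summed to 229 RPM, beside 327 RPM in the cow morula. The lists differ: POU5F1 and KLF4 are in that of cow alone, and KLF17 and GDF3 in that of pig alone. In the cow blastocyst library 0 of 8 were at 0 reads, but it held 14182046 reads against 3729816 in pig. From cow morula to blastocyst NANOG went from 76.4 to 14.5 RPM and SOX2 from 14.9 to 27.3 RPM. Of 7 compared cow markers 1 rose and 1 fell at this step. The part of epiblast cells in the SPRY4 levels was not tested.

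DUSP6, the cytoplasmic ERK phosphatase, had its lowest level in the morula in both species. By counting error this was apart from the next higher level in cow, that of the blastocyst. In pig it was not apart from the next higher level, that of 2-4 cells. In cow (chromosome 5, 19276348 to 19280028, minus strand) its level was 10.8 RPM in the oocyte library, 16.7 RPM at 2-4 cells, 5.34 RPM at 8-16 cells, 1.03 RPM in the morula (4 reads) and 5.15 RPM in the blastocyst library. The 2-4 cell stage was highest, the morula was apart at the bottom, and the 8-16 cell stage and the blastocyst did not differ beyond counting error. None of the cow differences passed the threshold: they were -1.48 at the step to the 8-16 cell stage, -1.65 at the step to the morula and 1.60 at the step to the blastocyst.

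In pig (chromosome 5, 93303519 to 93309678, plus strand) DUSP6 stood at 1.78, 0.967, 3.47, 0.666 and 7.51 RPM, the morula value being 2 reads. From morula to blastocyst it rose 11.3-fold (2.84 to 97.6), from 2 reads to 28 reads. An unnamed gene on the other strand overlaps 565 bases of the pig DUSP6 span and had between 0 and 2.41 RPM. At the pig blastocyst DUSP6 was thus at its highest level while SPRY2 and SPRY4 were at 0 reads, and at the cow blastocyst SPRY4 was at its highest level while SPRY2 was low, at a level not apart from that of the morula by counting error.

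Over the 7 genes analysed in both species, FGF2 fell and FGFR3 rose from oocyte to blastocyst in both, and SPRY4 rose in cow and fell in pig. FGFR2 passed the threshold in pig alone, with 1.90 in cow. SPRY2 passed it in pig alone, with -0.84 in cow. The difference between the species was not tested for any gene, as each stage had 1 library. FGFR4 was compared in cow alone, and DUSP6 passed the threshold in neither species over the whole course (-0.93 in cow and 1.62 in pig).

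The rest of the pathway was followed in 5 lists with 99 further genes, of which 96 had a row in cow and 91 in pig. From oocyte to blastocyst 11 of 70 compared genes rose and 16 fell in cow, and 15 of 71 rose and 19 fell in pig. Among all genes compared, 22.5% rose and 18.8% fell in cow, and 27.2% rose and 20.0% fell in pig. The median change of the 99 genes' compared members was -0.55 in cow and -0.09 in pig.

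Among other FGF ligands and receptor partners 2 of 9 compared genes rose and 2 fell in cow, and 0 of 10 rose and 3 fell in pig. FGF16, a secreted ligand of the same subfamily as FGF9 and FGF20, fell in both. In cow it went from 19.3 RPM to 0 reads, at least 91.1-fold lower, and in pig from 4.74 RPM to 0 reads, at least 5.89-fold lower. With low values set to the floor the FGF16 change in pig was -1.67, under the threshold. FGF1, the ligand that binds all FGF receptors, had 0.406, 1.13, 1.66, 12.6 and 13.5 RPM from oocyte to blastocyst in cow. In pig FGF1 had 42.9, 50.7 and 35.4 RPM at the first 3 stages, 9 reads in the morula and 0 reads in the blastocyst, so that it was high late in cow and early in pig. FGF13, an intracellular member that is not secreted, rose in cow from 0 reads to 7.05 RPM, at least 11.6-fold. FGF20 fell in cow from 3.65 RPM to 0 reads, at least 17.3-fold lower, with a change of -2.22 that was -1.94 with low values set to the floor. FGF9 fell in pig from 27.8 RPM to 0 reads, at least 34.6-fold lower, and its pig span lies wholly inside that of an unnamed gene on the other strand. That row had 53.6, 15.2, 13.3, 0.999 and 0 RPM from oocyte to blastocyst, beside 27.8, 9.18, 4.74, 0 and 0 RPM for FGF9.

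Among heparan sulfate coreceptors and synthesis enzymes 2 of 15 compared genes rose and 5 fell in cow, and 4 of 15 rose and 5 fell in pig. The core protein SDC4 (syndecan 4) rose in cow from 0.406 to 53.8 RPM and in pig from 0 reads to 20.9 RPM. HS6ST1, which adds sulfate to the chains, rose in cow from 0 reads to 10.6 RPM and in pig from 0.592 to 8.31 RPM. The glypicans GPC4 and GPC3 fell in both. GPC4 went in cow from 44.6 RPM to 0 reads, at least 211-fold lower, and in pig from 51.8 RPM to 0 reads, at least 64.4-fold lower. GPC3 went in cow from 24.9 to 0.212 RPM and in pig from 137 to 26.8 RPM. In cow NDST2 and SDC3 fell as well, with changes of -2.39 and -2.30 on the log2 scale, and in pig SDC2 and SULF2, with changes of -6.61 and -4.59.

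Among adaptors and the RAS-ERK cascade 3 of 22 compared genes rose and 3 fell in cow, and 7 of 21 rose and 1 fell in pig. MAP2K2, which encodes the kinase MEK2, rose in cow from 2.84 to 21.0 RPM and in pig from 0.888 to 44.8 RPM. KSR1, a scaffold of the cascade, rose in cow from 2.03 to 71.6 RPM and in pig from 1.78 to 12.1 RPM. RASA1, which switches RAS off, fell in cow from 1060.5 to 128 RPM and in pig from 534 to 50.1 RPM, where its span overlaps CCNH. In cow the kinase ARAF rose by 3.18 on the log2 scale and the adaptor FRS3 fell by 3.12. In pig CBL rose from 10.4 to 326 RPM, its span overlapping that of MCAM, which had 0 to 6.17 RPM, and the adaptor GRB2 rose from 1.18 to 18.2 RPM. GRB2 in cow went from 17.6 to 71.4 RPM, a difference of 1.96, just short of the threshold.

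Among other ERK feedback inhibitors 1 of 10 compared genes rose and 2 fell in cow, and 1 of 9 rose and 3 fell in pig. SPRY1, another Sprouty gene, fell in cow from 179 RPM to 0 reads, at least 848-fold lower, and in pig from 29.3 RPM to 0 reads, at least 36.4-fold lower. DUSP7, a phosphatase closely related to DUSP6, fell in cow from 84.0 to 3.31 RPM and in pig from 109 to 9.92 RPM. In cow SPRY3, with 0 reads in the oocyte library and 11.8 RPM in the blastocyst library, rose at least 19.5-fold. In pig SPRED2 fell from 786 to 15.8 RPM and ERRFI1, an inhibitor of the EGF receptor, rose from 0.592 to 15.3 RPM. Of the 4 Sprouty genes, then, SPRY3 and SPRY4 ended higher in the cow blastocyst than in the oocyte and all 4 were at 0 reads in the pig blastocyst library, SPRY3 in its oocyte library too.

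Among ERK-responsive transcription factors and targets 3 of 14 compared genes rose and 4 fell in cow, and 3 of 16 rose and 7 fell in pig. ETV5 and ETV1, ETS factors that FGF signalling switches on in many tissues, fell in both species. ETV5 went in cow from 39.1 to 1.13 RPM and in pig from 203 RPM to 0 reads, at least 253-fold lower. ETV1 went in cow from 16.4 to 2.40 RPM and in pig from 21.3 to 0.536 RPM. ELK3 fell as well, with changes of -2.52 in cow, or -1.95 at equal depth, and -5.85 in pig. The immediate early gene IER3 rose in cow from 0.811 to 51.3 RPM and fell in pig from 15.7 RPM to 0 reads, where its span lies wholly inside that of TUBB. In cow IER2 rose by 4.53 and ETS2 by 3.25. In pig EGR1 fell by 3.48, its span overlapping ETF1, while SRF rose from 0.888 to 19.3 RPM.

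**Figure D4:**
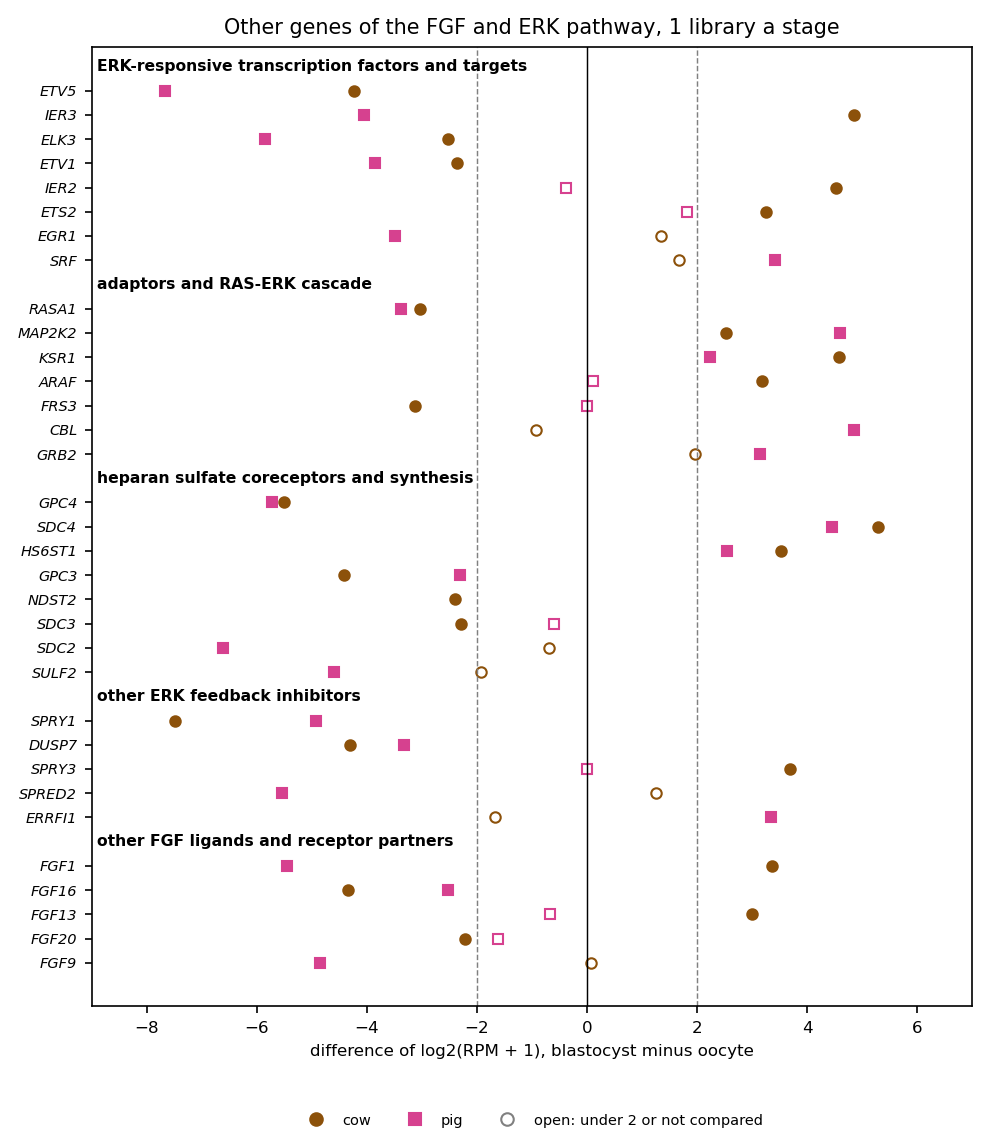
Difference of log2(RPM + 1) between the blastocyst and the oocyte library for genes named from the 5 pathway lists, in cow (brown circles) and pig (pink squares). Filled symbols passed the threshold of 2, drawn as dashed lines, and open symbols did not or were not compared; IER3 and FGF1 lie right of the upper line in cow and left of the lower line in pig.

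The genes whose course was most like that of a member were sought for FGF2, FGFR2, SPRY4 and DUSP6, the members with at least 5 RPM in a library of each species. Likeness was the root mean square difference of log2(RPM + 1) over the 10 libraries after removal of each gene's mean within its species, and 7522 symbols were searched. DNTTIP2 (0.23) and NUP43 (0.26) were most like FGF2, whose own spread around its means was 0.97. UBASH3B (0.38) and LPAR3 (0.40) were most like FGFR2 with a spread of 1.30, and PCBP1 (0.31) and ANAPC15 (0.32) were most like DUSP6 with a spread of 0.96. For SPRY4 no gene came as close: CHSY3 differed by 0.90 and GPT2 by 0.93, against a spread of 1.93. Like SPRY4, CHSY3 was at 0 reads in the pig blastocyst library after 75.6 RPM in the morula, whereas in cow it stood at 42.8 and 52.6 RPM at these stages.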

How the data were processed

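The deposited values are log2 RPM, 1 table per species. Per the submitters' processing notes, Trim Galore 0.6.4 and HISAT2 2.1.0 were used, and the builds named are UMD3.1 and Sscrofa11.1, the first a cow and the second a pig assembly. The counting tool, annotation, strand and treatment of duplicate reads are not given in the sources used here. That deposited log2 unit was read from the values: in each column the second lowest value is 1 read, 99.9% of the higher values or more are whole multiples of it (within 0.01 reads), and 0 reads are written as 0.9 of a read. Reads and RPM were recovered from this, with 0 reads as 0, in Python 3.11.15 with numpy 2.4.6, pandas 2.3.3 and scipy 1.17.1.

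Of rows sharing a symbol, that with the highest mean was kept. Differences of log2(RPM + 1) were taken within a species, for genes with at least 1 RPM in either library, with a threshold of 2. Folds carry exact intervals of the ratio of 2 counts, and folds against 0 reads are bounds against 3 reads. With 1 library a group no test, count model or replicate spread was possible. The calling step was tested on simulated data. The members and lists were chosen with earlier results of these data known. From each pathway list up to 4 genes that passed the threshold in both species were named, by the smaller change, and up to 2 more per species that passed it there alone. 12 alternatives of pseudocount, minimum, threshold, scaling, depth, floor and row choice were run.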

Additional observations from a re-analysis of the deposited data

Results flagged for a closer look

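SPRY4 changed in opposite directions from oocyte to blastocyst, by 4.08 in cow and by -3.26 in pig, each past the threshold in 1 library per stage. FGF1 did so too, with 3.37 in cow and -5.46 in pig. For IER3 the change was 4.85 in cow and -4.06 in pig, where its row lies inside TUBB, which had 42.9 RPM in the oocyte and 345 RPM in the blastocyst library. The difference between the species was not tested for these 3 genes. The signs held under all 12 alternatives, of which those of pseudocount, minimum and threshold cannot change a sign. No group had enough libraries to look for a library apart from its group.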

How the results depend on the processing

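From oocyte to blastocyst 4 members changed in cow and 5 in pig. These were 2 and 1 with a threshold of 3, and in pig 3 with a minimum of 5 RPM and 3 with low values set to the floor. Changes of members over the 4 consecutive steps numbered 5 in cow and 7 in pig. They were 10 and 11 with a pseudocount of 0.1 RPM, 13 and 15 with a threshold of 1, and 2 and 2 with a threshold of 3. The other pathway genes changed numbered 27 in cow and 34 in pig, and 47 and 53 with a threshold of 1. Of the 21 changes of single members past the threshold, followed through 12 alternatives, 229 of 252 calls were kept, 23 were lost and 0 changed sign. Of the 23, 14 were lost to the threshold of 3 with the value unchanged, 3 were not compared at a minimum of 5 RPM, and 6 had a value under 2. Some alternatives could not lose a call, so calls kept under them carry no weight. These are the threshold of 1, no minimum, the smaller pseudocounts and the sum of rows, as each member has a single row. Choices of pseudocount, minimum or threshold cannot change a sign. Scaling to gene reads outside the mitochondrial genome moved the median change of all genes from oocyte to blastocyst by 0.42 in cow and 0.10 in pig, and median-of-ratios scaling moved it by -0.17 in pig, and changes are read against these shifts. No paired analysis was possible because each group had 1 library. For the same reason no library could be left out. Depth limits FGFR3, FGFR4 and SPRY2 in pig and SPRY4 and FGFR3 in the early cow stages, all at 14 reads or fewer outside the blastocyst and morula.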

Other observations

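Several genes of the fixed lists had their highest level between the oocyte and the blastocyst, so that the comparison of these end points does not show them; they were picked after their values were seen. DUSP1, a phosphatase of the stress and ERK kinases, had 5.48 RPM in the cow oocyte library, 3.83 RPM at 2-4 cells, 331 RPM at 8-16 cells, 352 RPM in the morula and 22.2 RPM in the blastocyst library. In pig DUSP1 was highest in the morula library, at 30.0 RPM, beside 3.55 RPM in the oocyte and 4.56 RPM in the blastocyst library. The transcription factor MYC was highest at the 8-16 cell stage in both species, at 25.8 RPM in cow and 15.2 RPM in pig. Both oocyte libraries had 0 reads of MYC, and the blastocyst libraries 0.987 RPM in cow and 2.68 RPM in pig. FGF13 in pig reached 49.6 RPM in the morula between 0.592 RPM in the oocyte and 0 reads in the blastocyst library, while in cow it stayed at 7.69 and 7.05 RPM in the morula and blastocyst libraries. FGF18 in cow had 6.26 RPM at 8-16 cells, 4.87 RPM in the morula and 0 reads in the blastocyst library, beside 0.609 RPM in the oocyte library.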
